A study of Caenorhabditis elegans with 2 samples.

Results

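The genes described here encode subunits of the nuclear RNA polymerases and of Mediator in the nematode Caenorhabditis elegans, and the question is whether peaks of the tagged protein ROW-1 lay at their promoters. They were taken by symbol: every nuclear protein-coding gene named rpb, rpc, rpoa, ama or mdt, which gave 40 of 19973 such genes, 20 for polymerase subunits and 20 for Mediator subunits. Chromatin immunoprecipitation with an anti-GFP antibody, followed by sequencing (ChIP-seq), gave the positions of the protein. All samples came from whole L4 hermaphrodites of 1 transgenic line, strain OP510, genotype unc-119(tm4063) III; wgIs510, in which row-1 (F37D6.2) bears a GFP-FLAG tag at its C terminus. The worms were taken 48 h after synchronization as starved L1 larvae, in 2 biological replicates of 1 group. Cells of every tissue were lysed together, so the lists do not tell in which cells a site was occupied. No untagged strain and no control library was examined here, and signal that any GFP-tagged protein may give at open promoters is not separated from binding by ROW-1.

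RNA polymerase I makes most ribosomal RNA, polymerase II makes messenger RNA and many small RNAs, and polymerase III makes transfer RNA and 5S ribosomal RNA. Mediator is a large complex, built of head, middle and tail modules, that passes signals from DNA-bound regulators to polymerase II at promoters. ROW-1 has zinc fingers of the C2H2 type, many of which bind DNA in other proteins.

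The optimal list, the submitters' final set made from both replicates, held 1574 peaks with signals of 74.8 to 4375 and a median of 115. The pooled list, which also takes in weak calls and background, held 30000 calls down to a signal of 12.4. The lists of replicate 1 and replicate 2 held 28339 and 25405 calls. Signals are the authors' own values for each peak and are used here to rank and describe peaks within a list. Read depth is unknown. A gene was counted as having a promoter peak where an optimal summit, the highest point of a peak, lay in its promoter window, which reaches 500 bp upstream and 200 bp into the gene from each annotated 5' end. Positions are on ce11 (WBcel235).

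Summit sequences of 5 of the 8 member peaks described below are shown, from the strongest to the weakest, because they differ in the short words they carry. Each runs 101 bases of the plus strand, 5' to 3', centred on the optimal summit, from the RefSeq sequence of WBcel235. Capitals mark matches, on either strand, to the 5 leading 6-base words that were most enriched near the other 721 optimal summits in promoters of protein-coding genes. The words were GACGCA and the overlapping words ACGCAG and CGTCTC, the G-rich alternating word GAGAGA, and the CG-rich word ACGCGC.
rpb-11, chrII:14059913-14060013: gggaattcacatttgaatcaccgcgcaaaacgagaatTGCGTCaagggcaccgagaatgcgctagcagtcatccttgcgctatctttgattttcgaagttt
mdt-26, chrII:5661191-5661291: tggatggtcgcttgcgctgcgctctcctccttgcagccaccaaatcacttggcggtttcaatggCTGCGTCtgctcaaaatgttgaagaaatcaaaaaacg
mdt-22, chrII:10301100-10301200: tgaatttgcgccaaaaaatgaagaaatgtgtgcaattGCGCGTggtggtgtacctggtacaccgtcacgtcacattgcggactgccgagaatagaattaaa
rpoa-12, chrV:14423373-14423473: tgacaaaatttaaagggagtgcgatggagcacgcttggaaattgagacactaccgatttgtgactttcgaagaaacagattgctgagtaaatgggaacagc
mdt-1.2, chrX:17151316-17151416: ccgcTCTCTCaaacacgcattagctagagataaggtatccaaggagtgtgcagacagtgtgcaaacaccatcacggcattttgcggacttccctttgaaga

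Promoter peaks were found at 8 of the 40 polymerase and Mediator genes (20.0%, exact Clopper-Pearson 95% interval 9.05 to 35.6), against 914 of all 19973 genes (4.58%). Among the polymerase genes the count was 3 of 20 (15.0%, 3.21 to 37.9): rpb-11, rpb-3 and rpoa-12. Among the Mediator genes it was 5 of 20 (25.0%, 8.66 to 49.1): mdt-26, mdt-9, mdt-22, mdt-18 and mdt-1.2. The intervals of both sets overlap over most of their length, and the difference between polymerase and Mediator was not tested. The interval of the polymerase genes also takes in the 4.58% of all genes, while that of the Mediator genes and that of all 40 lie above it. This did not hold under every setting. With each summit given to the nearest gene, the intervals of the Mediator genes (5.73 to 43.7) and of all 40 (5.71 to 29.8) take in the 6.77% of all genes. The same was so with the strongest calls of replicate 2 alone, where the intervals were 1.23 to 31.7 and 4.19 to 26.8 against 4.22%. It was also so with the 787 strongest optimal peaks, where they were 0.127 to 24.9 and 0.611 to 16.9 against 2.31%. The polymerase interval lay above the share of all genes with the window of 250 bp upstream to 100 bp downstream (3.21 to 37.9 against 2.83%). It also did so with the 3148 strongest pooled calls (8.66 to 49.1 against 7.98%) and with any pooled call (40.8 to 84.6 against 29.2%). Both pooled settings take in calls weaker than the optimal list. Under the remaining settings the polymerase interval took in the share of all genes. Intervals cover counting error only, and genes that share a promoter region are not independent of each other.

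The peaks were spread over the complexes. In polymerase II they lay at 2 of 12 genes and in polymerase I at 1 of 4, against 0 of 4 in polymerase III, where a count of 0 allows a share of up to 60.2% by the same exact interval. In Mediator they lay at 2 of 10 genes of the head, 2 of 6 of the middle and the single gene for MED26, and at 0 of 3 of the tail, which allows up to 70.8%. Counts of this size do not order the modules. The 12 polymerase II genes include rpb-5, rpb-6, rpb-8, rpb-10 and rpb-12, whose subunits are shared with the other polymerases. The counts are therefore not shares of each whole enzyme.

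**Figure D1:**
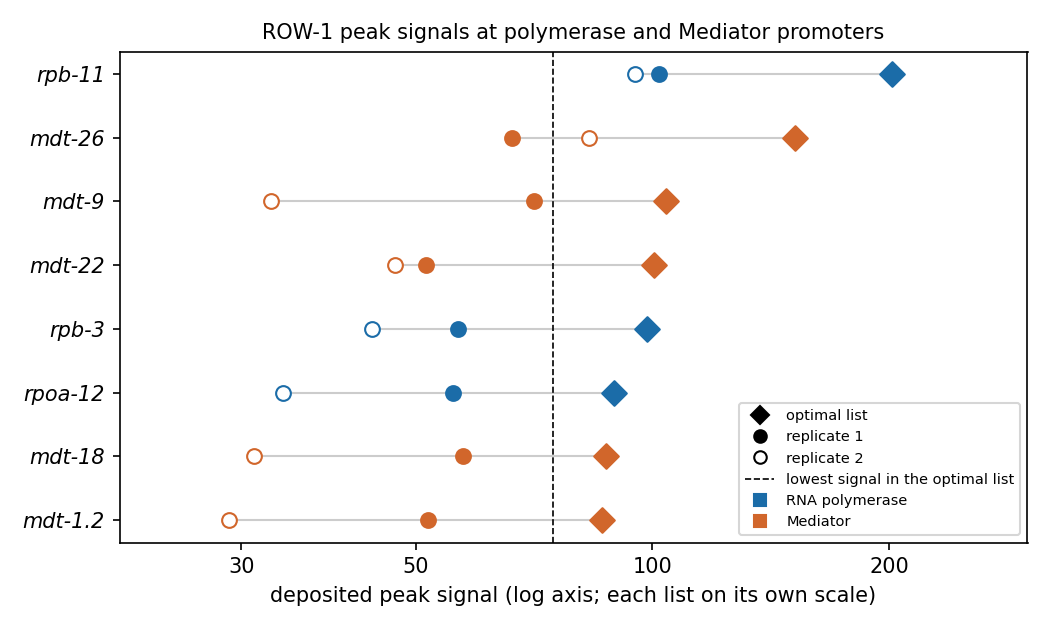
Deposited signal of the 8 member peaks on a log axis, in the optimal list (diamonds), replicate 1 (filled circles) and replicate 2 (open circles), 1 row per gene, with polymerase and Mediator genes in different colours. The dashed line is the lowest signal of the optimal list, 74.8, and applies to the diamonds alone. The diamonds run from 86.2 at mdt-1.2 to 202 at rpb-11, and the replicate signals, each on the scale of its own list, are highest at rpb-11 in both lists.

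Among polymerase II genes, the strongest peak was at rpb-11 (WBGene00012187, chromosome II, 14060085 to 14060624, plus strand). In other species the RPB11 protein pairs with RPB3, and the pair is the counterpart of the alpha dimer on which bacterial polymerase is assembled. The optimal peak at 14059879 to 14060093 was 215 bp wide and had its summit at 14059963, in intergenic sequence 122 bp upstream of the 5' end. Its pooled signal was 202, rank 274 of 1574. The matching call had a signal of 102 in replicate 1, rank 375, and of 94.9 in replicate 2, rank 213. Both replicates placed the summit on the same base, and no other protein-coding gene shared the window. In the sequence above, the word TGCGTC, the reverse complement of GACGCA, begins 13 bp before the summit.

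The gene of the partner subunit, rpb-3 (WBGene00007971, chromosome I, 8728764 to 8730054, plus strand), also had a peak. Its signal was 98.4, rank 1029, with 56.6 in replicate 1 and 44.0 in replicate 2. The summit at 8728593 lay 171 bp upstream of rpb-3 but 106 bp from the 5' end of pas-4, a gene for a proteasome subunit on the other strand. The 5' ends of rpb-3 and pas-4 lie 277 bp apart, and the summit fell inside an exon of the noncoding gene C36B1.16. Which of these genes the peak belongs to cannot be told apart from these lists.

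The largest polymerase II subunit, encoded by ama-1, which holds much of the catalytic site and the repeated C-terminal tail, had no pooled call in its window. The strongest nearby lay 530 bp upstream, with a signal of 38.8 and rank 4180. Replicate 1 had a call of 26.3, rank 3694, and replicate 2 one of 10.1, rank 17859. Their summits lay at -500 and -493 bp from the 5' end, at the outer edge of the window but inside it. All 3 calls ranked below the 1574 strongest of their lists.

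Just below the optimal list stood rpb-7, whose protein forms the stalk of polymerase II with RPB4 and touches the emerging RNA. Its pooled call had a signal of 61.4, rank 2108, with the summit 6 bp into the gene, and signals of 38.9 in replicate 1 and 23.4 in replicate 2. This call also lay in the window of the head-to-head gene Y54E10BR.2, whose 5' end was nearer to the summit. Next came rpb-12, for a small subunit shared by all nuclear RNA polymerases, with a pooled signal of 50.3, rank 2753, which ranked 2424 in replicate 1 and 13126 in replicate 2. A pooled call of the same rank lay in the window of aly-2. The weakest member inside the list was mdt-1.2, at 86.2 and rank 1291. These values are given as a description of the threshold, which the authors set.

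Other subunits shared among the polymerases had weaker calls. The pooled signal was 41.7 at rpb-10, 36.0 at rpb-5 and 18.0 at rpb-8, while rpb-6 had no pooled call within the gene or 1000 bp around it. The call of rpb-10 also lay in the window of its head-to-head neighbour Y37E3.1, whose 5' end was nearer to the summit. Of the subunits that belong to polymerase II, rpb-9 had 35.6 and rpb-2, the second large subunit, 17.2. The window of rpb-4 held no pooled call. With rpb-7 and rpb-12 included, 9 of the 12 polymerase II genes (75.0%, 42.8 to 94.5) had some pooled call in a window, against 29.2% of all genes.

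Among the rpoa genes of polymerase I the peak was at rpoa-12 (WBGene00007616, chromosome V, 14422725 to 14423304, minus strand). In yeast the corresponding protein takes part in cleaving the RNA when the enzyme stalls and backtracks. The summit at 14423423 lay 119 bp upstream and the signal was 89.4, rank 1210. Replicate 1 had a call of 55.7, rank 1141, and replicate 2 a call of 33.9, rank 1489, with summits 102 bp apart. No other gene had the summit in its window. The large subunit genes rpoa-1, with a pooled signal of 20.3, and rpoa-2, with no call in its window, had no peak, nor had rpoa-49.

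None of the rpc genes of polymerase III had a promoter peak, though rpac-19, counted below among subunits with other symbols, did. Both large subunit genes had calls of similar pooled signal, 31.8 at rpc-1 (rank 6036) and 31.5 at rpc-2 (rank 6157). The strongest replicate calls in their windows ranked them in opposite order. In replicate 1 rpc-1 had 20.1 and rpc-2 had 14.2, and in replicate 2 rpc-1 had 14.5 and rpc-2 had 25.1. The calls of rpc-2 lay at -374 bp from the 5' end in replicate 1 and -65 bp in replicate 2, so they need not mark the same site. The windows of rpc-11 and rpc-25 held no pooled call, although a call of 63.2 lay 1445 bp downstream of the 5' end of rpc-25, beyond its 3' end.

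Among Mediator genes, mdt-26 (WBGene00016115, chromosome II, 5661181 to 5665243, plus strand) had the strongest promoter peak. Its human counterpart MED26 connects Mediator with elongation factors. The summit at 5661241 lay within a coding exon, 47 bp downstream of the nearest annotated 5' end, which made it the 1 member peak of 8 with a summit inside its gene's coding sequence. The signal was 152, rank 476, with 66.3 in replicate 1 (rank 852) and 83.1 in replicate 2 (rank 292). The sequence above carries CTGCGTC, in which GACGCA and ACGCAG overlap, 14 bp after the summit. The window also took in the divergent gene ift-43, for a protein of intraflagellar transport, 455 bp from the summit.

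A stronger peak lay further inside mdt-26, outside the promoter window. It ran from 5661613 to 5662112, with a summit in an intron 742 bp from the nearest 5' end. Its signal was 278, rank 137, against 152 for the promoter peak, and it was the stronger in both replicates, at 168 and 110.1.

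Of the head module, mdt-22 and mdt-18 had peaks. In yeast, MED18 and MED22 are both head subunits that sit close to the polymerase. At mdt-22 (WBGene00007022, chromosome II, 10301216 to 10301888, plus strand) the signal was 100.5, rank 992, and the replicates gave 51.5 and 47.0. The summit at 10301150 lay 66 bp upstream of mdt-22 and 70 bp from a 5' end of clpp-1, a gene for a mitochondrial protease that runs on the other strand and spans mdt-22. Its sequence holds GCGCGT, the reverse complement of ACGCGC.

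At mdt-18 (WBGene00007018, chromosome I, 6492720 to 6495253, minus strand) the signal was 87.3, rank 1259, with 57.4 in replicate 1 and 31.1 in replicate 2. The summit at 6494047 lay 200 bp upstream of an internal 5' end in the annotation and inside the 5' UTR exon of longer transcripts. It also lay 243 bp from the divergent gene uri-1, the homologue of a human prefoldin-like protein that binds the polymerase subunit RPB5. With the outermost 5' end of each gene alone, mdt-18 no longer counted.

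Of the middle module, mdt-9 and mdt-1.2 had peaks. At mdt-9 (WBGene00014938, chromosome IV, 13386380 to 13387361, plus strand) the signal was 104, rank 941. Replicate 1 had 70.7, rank 767, and replicate 2 had 32.7, rank 1584. The summit at 13386289, 91 bp upstream, lay 35 bp from the gene Y62E10A.23 on the same strand and 198 bp from Y62E10A.20 on the other.

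At mdt-1.2 (WBGene00007011, chromosome X, 17151522 to 17154647, plus strand), for a homologue of the MED1 subunit, the signal was 86.2, rank 1291. Replicate 1 had 51.8, rank 1290, and replicate 2 had 28.9, rank 1971. The summit at 17151366 lay 156 bp upstream in a window that no other gene shared. Its sequence carries TCTCTC, the reverse complement of GAGAGA, 46 bp before the summit.

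In the tail module, mdt-15, whose product controls genes of lipid metabolism in worms, had a pooled call of 20.2 and rank 14770, seen in replicate 2 alone. The windows of mdt-27 and mdt-29 held none. The other head and middle genes had pooled signals of 35.3 (mdt-17), 27.9 (mdt-31), 22.0 (mdt-30), 17.0 (mdt-4) and 16.3 (mdt-11), or no call in the window. The genes mdt-20, mdt-28 and mdt-29 had no pooled call within the gene or 1000 bp around it.

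Peaks past the window were found near mdt-19 and mdt-6. The peak 789 bp upstream of mdt-19 had a signal of 266, rank 148, higher than any promoter peak of the 40 genes, and lay 230 bp from apb-1, an adaptor protein gene. The peak 935 bp upstream of mdt-6 had a signal of 81.0, rank 1404, and lay 7 bp inside Y57E12AL.1. With a window of 1000 bp upstream to 500 bp downstream the count became 10 of 40, against 6.08% of all genes.

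**Figure D2:**
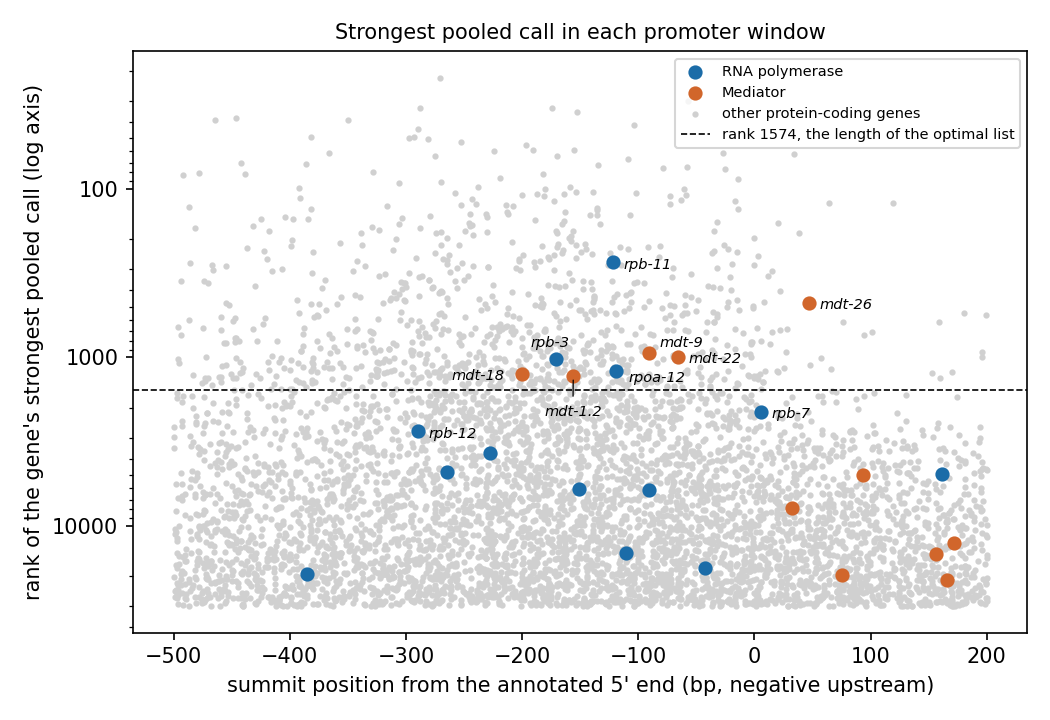
Rank of the strongest pooled call in each gene's promoter window (log axis, strongest at the top) against the position of its summit from the annotated 5' end in bp, for polymerase genes, Mediator genes and all other protein-coding genes with a call. The 8 member peaks above the dashed line (rank 1574) lie from 200 bp upstream to 47 bp downstream, and rpb-7 and rpb-12 follow just below it.

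As peaks, those of the members were of ordinary or low strength. Their median signal was 99.4 (86.2 to 202), against 114 (74.9 to 1231) for all 729 optimal peaks in promoters of protein-coding genes. Among the 787 strongest optimal peaks were 2 of the 8 (25.0%), rpb-11 and mdt-26, against 359 of the 729 (49.2%). The median distance of the summit from the 5' end was 120.5 bp at members, against 199 bp at all, and 7 of 8 (87.5%) against 888 of 941 pairs of gene and peak (94.4%) lay upstream. The 7 include mdt-18, whose summit is upstream of an internal 5' end alone and lies 1206 bp inside the gene model. Replicate 1 signals divided by those of replicate 2, which may differ in scale, had a median of 1.46 at the members and 1.44 at all such peaks. Summits of both replicates lay 29.5 bp apart at the median member peak and 20.0 bp apart over all.

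The replicates ranked the members' peaks with unequal strength. All 8 were among the strongest 1574 calls of replicate 1, and 5 were among those of replicate 2, where mdt-9, mdt-18 and mdt-1.2 ranked 1584, 1712 and 1971. With the strongest calls of replicate 1 alone the count stayed at 8 of 40 genes, against 4.59% of all genes, and with those of replicate 2 alone it was 5, against 4.22%. The Mediator genes accounted for that loss, with 2 of 20 left, while the 3 polymerase genes remained. Over calls of any strength, 25 members had one in replicate 1, against 28.9% of all genes, 20 in replicate 2, against 26.2%, and 18 in both, against 18.0%.

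Of the 32 members with no optimal peak, 16 had a pooled call in a window, with signals of 16.3 to 61.4 and a median of 29.7, and 16 had none. Calls of this weakness were common: any pooled call was present at 24 of 40 members (60.0%, 43.3 to 75.1), against 29.2% of all genes. By set, the count was 13 of 20 polymerase genes (65.0%) and 11 of 20 Mediator genes (55.0%). Among the strongest 3148 pooled calls, 10 members (25.0%) had one, 5 of each set, against 7.98% of all genes. Among the strongest 5000 the members' share was 35.0%, against 10.7%, and among the strongest 10000 it was 42.5%, against 16.2%. The weak part of the list is kept by the submitters as background for comparing replicates, and a call there is not a peak.

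**Figure D3:**
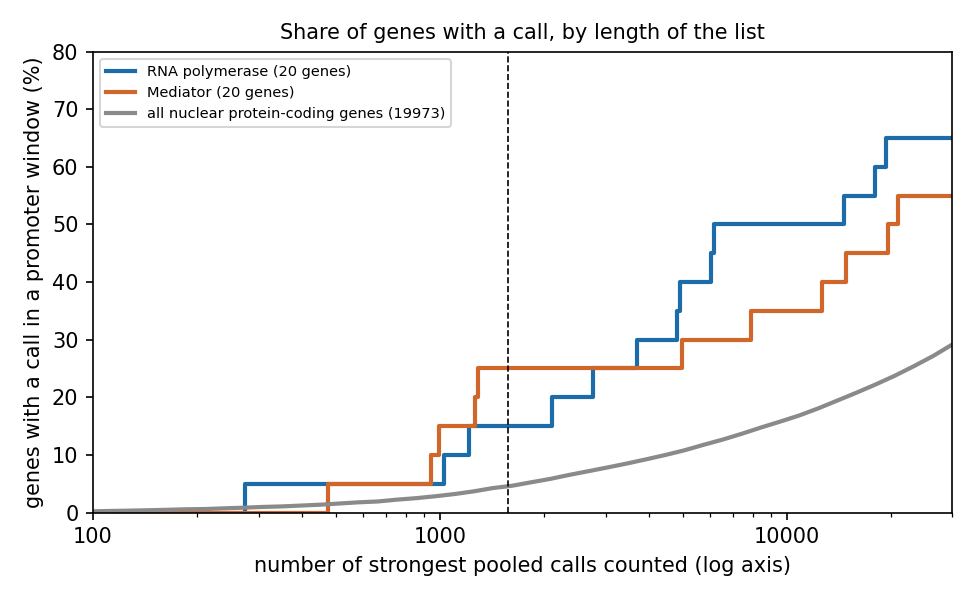
Percent of genes with a pooled call in a promoter window, as the list is lengthened from the strongest calls to all 30000 (log axis), for polymerase genes, Mediator genes and all protein-coding genes. With the 500 strongest calls both sets are at 5.00%, 1 gene each, against 1.54% of all genes. At 1574 calls they are at 15.0% and 25.0% against 4.58%, and they end at 65.0% and 55.0% against 29.2%.

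Many members sit close to other genes. A 5' end of another gene lay head to head within 500 bp at 8 of 40 members (20.0%), against 1973 of all genes (9.88%). Of these 8 members, 5 had a promoter peak, against 14.5% of all genes so placed. They were all 4 Mediator genes of this class (mdt-9, mdt-18, mdt-22 and mdt-26) and 1 of 4 polymerase genes (rpb-3). Of the 32 members without such a neighbour, 3 (9.38%) had a peak, against 3.48% of all genes: rpb-11, rpoa-12 and mdt-1.2. A summit that falls in the windows of both neighbours is counted for both genes. At mdt-26 the summit lies inside the gene and not between the divergent 5' ends. At mdt-18 the class rests on an internal 5' end, and both the summit and the 5' end of uri-1 lie inside its gene model. At mdt-22 it rests on an internal 5' end of clpp-1, since clpp-1 spans mdt-22. In all, 5 of the 8 member peaks (62.5%) lay in windows of 2 or more genes, against 207 of the 729 (28.4%). The 28.4% counts each peak once, though the 729 peaks make 941 pairs of gene and peak. Members were picked as genes, and a peak shared by more genes has more ways to be picked. The contrast of these shares is therefore partly due to how they were counted.

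When each optimal summit was given to the nearest gene alone, 6 members remained, against 6.77% of all genes. The genes lost were rpb-3, to pas-4, and mdt-9, to Y62E10A.23.

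In C. elegans many genes stand in operons, in which downstream genes are transcribed from a promoter upstream of the leading gene. Closely spaced genes on 1 strand were therefore counted, though no operon annotation was used. A gene on the same strand ended within 500 bp upstream of 18 members (45.0%), against 18.1% of all genes. Of these 18, 1 had a promoter peak (5.56%), rpoa-12, against 2.87% of all genes so placed. Of the other 22 members, 7 (31.8%) had one, against 4.95% of all such genes. At 4 of the 18, against 10.9% of all genes so placed, a gene further up the same run of closely spaced genes had a peak: wip-1 above mdt-11 (signal 354), hach-1 above rpc-2 (91.8), mmab-1 above rpb-8 (88.4) and Y57E12AL.6 above mdt-6 (81.0).

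**Figure D4:**
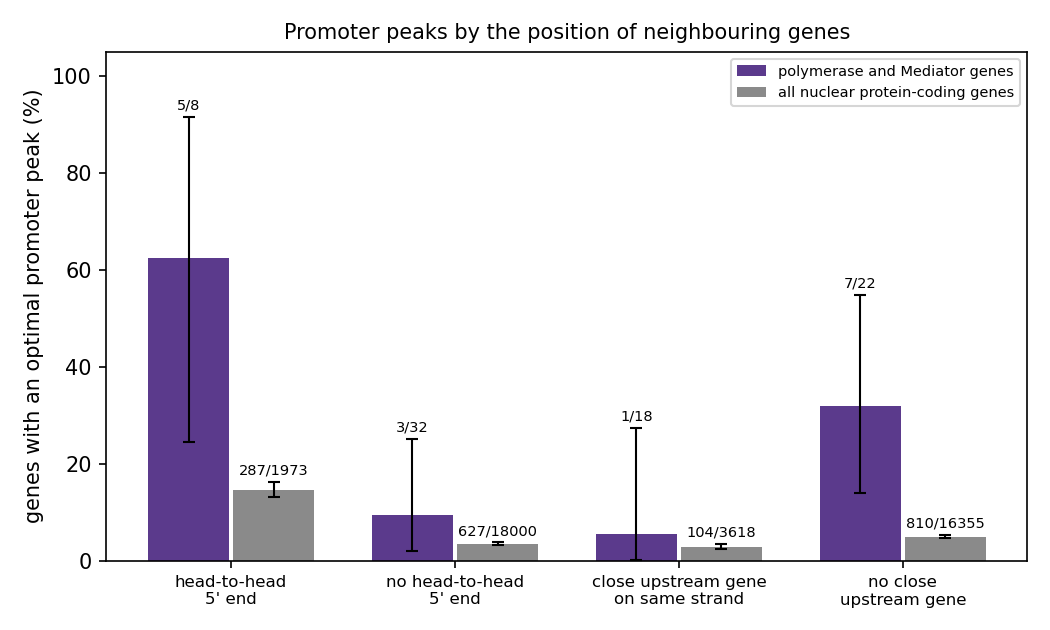
Percent of members and of all protein-coding genes with an optimal promoter peak, split by whether another gene starts head to head within 500 bp and by whether a gene on the same strand ends within 500 bp upstream, with exact 95% intervals. Of members with a head-to-head neighbour 5 of 8 had a peak, and of members close behind another gene 1 of 18.

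At the summits, the words that lead in other promoters were present at some members and absent from others. Within 50 bp of the summit, GACGCA was found at 2 of 8 member peaks (rpb-11 and mdt-26), against 22.5% of the 721 others, whose flanks 250 to 300 bp away held it in 1.94%. ACGCGC was found at 2, among them mdt-22, against 18.4% and 1.39% in flanks. GAGAGA was found at mdt-1.2 and ACGCAG at mdt-26, against 23.0% and 18.7% of the others. CGTCTC was at none of the 8, against 18.7%. Any of the 5 words was found at 5 of 8 member peaks, a share near the 56.3% of the others. The peaks of rpb-3, rpoa-12 and mdt-18 held none.

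Motifs of general promoters and of known factor families were sought on both strands within 150 bp of the summit, and no motif contains another. TTTCAG, the sequence at the end of many worm introns and at trans-splice sites, was near 5 of 8 member summits, against 35.5% of all 729. The core promoter element TATAAA was near 3, against 25.7%. AGATAA, the kind of site bound by GATA factors, was near 2 (rpoa-12 and mdt-1.2), against 12.8%, and GAGAGA near 1, against 41.7%. CACGTG, the E-box, and GGGCGG, the GC box, were near none, against 6.04% and 14.1%. The GC content of the 101 bases around the summit ran from 24.8% at mdt-18 to 50.5% at mdt-26, with a median of 44.1%, against a median of 49.5% and quartiles of 44.6% and 53.5% at the other promoter peaks. A match here describes the sequence, and the absence of one says only that these letters are not in the window.

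The rest of the transcription machinery was counted from 6 lists of 88 genes. Of these, 8 had a promoter peak (9.09%, 4.01 to 17.1), between the 20.0% of the 40 members and the 4.58% of all genes, with an interval that overlaps that of the members. The shares were closer under some settings and further apart under others. They were 20.0% and 7.95% with the window of 250 bp upstream to 100 bp downstream, and 25.0% and 10.2% with the 1000 bp window. Peak overlap, the 1574 strongest pooled calls and replicate 1 alone left them at 20.0% and 9.09%. With the nearest gene they were 15.0% and 9.09%, and with replicate 2 alone 12.5% and 9.09%. With the 3148 strongest pooled calls they were 25.0% of the members and 19.3% of these genes (17 of 88). With any pooled call they were 60.0% of the members and 59.1% of these genes (52 of 88). With the 787 strongest peaks they were 5.00% and 4.55% (4 of 88), and these 4 include cdk-7 and taf-4 at ranks 783 and 785. Polymerase subunits with other symbols had 1 of 2, rpac-19, the polymerase I and III counterpart of RPB11, with a signal of 83.2. The general transcription factors had 3 of 36: cdk-7, the kinase of TFIIH (115), the TFIID gene taf-4 (115) and taf-11.3 (78.2). Elongation and termination factors had 2 of 23, pafo-1 of the PAF complex (161) and cids-2 (98.8), whose peak also lay in the window of another gene. Integrator, which cleaves small nuclear RNA and other transcripts, had 2 of 11, ints-8 (95.5) and ints-4, whose signal of 425 (rank 62) was higher than that of any member. Mediator subunits with other symbols had 0 of 9, and factors of small nuclear RNA and class III promoters had 0 of 7.

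How peaks were assigned to genes moved the members' count less than the strength that was asked for. A window of 250 bp upstream to 100 bp downstream kept all 8 members, against 2.83% of all genes, and overlap of the peak in place of the summit also kept 8, against 5.25%. With the outermost 5' end alone the count was 7, against 4.27%. The 1574 strongest pooled calls gave the same 8 genes, against 4.58%. With the 787 strongest optimal peaks 2 genes were left, rpb-11 and mdt-26, against 2.31%. The optimal list of the older assembly ce10 holds 2157 peaks down to a signal of 60.5, and its peaks, matched to ce11 calls, gave 9 members with rpb-7 added, against 6.01%.

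**Figure D5:**
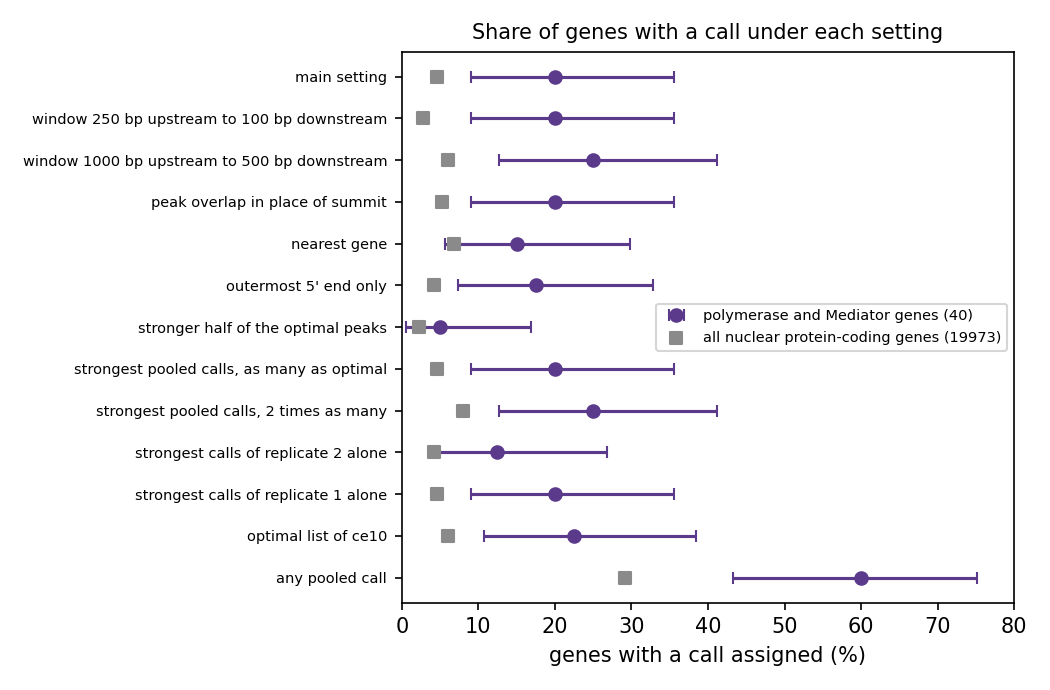
Percent of the 40 members with a call assigned (points, with exact 95% intervals) and of all 19973 genes (squares) under each setting. The members' interval takes in the share of all genes with the nearest gene, with replicate 2 alone and with the 787 strongest peaks, and lies above it elsewhere. Counts run from 2 of 40 against 2.31% with the 787 strongest peaks to 24 of 40 against 29.2% with any pooled call.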

How the data were processed

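ChIP-seq peak lists of 2 biological replicates of 1 group were used: a list per replicate, a pooled list and an optimal list, for ce11, plus the optimal and pooled lists for ce10. The authors deposited a signal for each peak. The sources used here do not give the aligner, peak caller, optimal-list threshold or signal scale, so read depth is unknown and signals of different lists were not put on 1 scale. All sample columns were mapped (0 unmapped).

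Gene models were Ensembl release 115 (WBcel235), and sequence was RefSeq's for the same assembly. The 40 genes, the pathway lists and the promoter window were chosen with earlier results of these data known, so nothing here is an independent test. The summit sequence of mdt-9 is not reported here. Lists were matched by symbol, and tfg-1, which matched the general factor pattern, encodes a secretory pathway protein. It had no peak. Replicate calls are the strongest that overlap the optimal peak by 1 bp. For members without an optimal peak they are the strongest with a summit in a promoter window, and need not overlap the pooled call. No test was run: shares carry exact Clopper-Pearson 95% intervals beside the share of all nuclear protein-coding genes. Named are all members with a peak, ama-1, members within the 3148 strongest pooled calls, genes that share a member's window, and up to 4 genes with peaks per other list; other members are given by pooled signal. Leading 6-base words were those most enriched at summits of other promoter peaks over flanks 250 to 300 bp away. For the ce10 list, 2130 of 2157 peaks were matched to ce11 calls by signal (within 0.1%) and position (within 1000 bp), with no coordinate conversion. This list and any pooled call were alternatives added after seeing the data. The others were the window, the overlap, the nearest gene, the outermost 5' end, list strength, each replicate alone and, for motifs, 100 bp. The assignment was tested on simulated data. Computations used Python 3.11.15, numpy 2.4.6, pandas 2.3.3, scipy 1.17.1 and matplotlib 3.10.9.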

Additional observations from a re-analysis of the deposited data

How the results depend on the processing

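No paired analysis was possible because the samples form 1 group. Counts of genes with a promoter peak moved by more than 1.5 times mainly with the strength asked for. The 787 strongest optimal peaks left 2 members (1 polymerase, 1 Mediator) and 4 genes of the other lists. The 3148 strongest pooled calls gave 5 polymerase genes and 17 genes of the other lists. Any pooled call gave 24 members (13 polymerase, 11 Mediator) and 52 genes of the other lists. With 1 replicate left out, the counts ran from 5 to 8 members, 3 to 3 polymerase and 2 to 5 Mediator genes. The low member and Mediator counts came without replicate 1. For the other lists the count was 8 either way, though these need not be the same 8 genes. The replicate 2 calls at the peaks of rpac-19, cids-2 and taf-11.3 ranked 1751, 1934 and 2389, below the strongest 1574. The cause of these moves was not tested, except that fewer or more calls enter by construction. Under the remaining alternatives these counts stayed within 1.5 times. The median rank of the members' peaks was 375 over the 2 peaks left among the 787 strongest, and AGATAA was within 100 bp of 1 summit, against 2 within 150 bp. Unknown depth, no control library examined here and 20 genes a set limit these counts.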
